A study of Mus musculus with 9 samples.

Results

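The 6 genes described here, Tmem26, Mrgprf, Islr, Serpinb6b, Smtnl2 and Lims2, were picked from 49315 gene identifiers because their transcripts were far lower in hypoxic stellate cells with a Hif1a guide than in hypoxic control cells. That difference chose them, so it is given as a description without a test. All 6 were among the 18211 genes that passed a filter on low counts. The question followed here is how the 6 genes stand in each library relative to control cells kept in normal oxygen.

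Poly-A RNA was sequenced from mouse (C57BL6) pancreatic stellate cells, fibroblast-like cells of the pancreas that make matrix when activated. They were a spontaneously immortalised line, transduced with lentivirus for Cas9 and 1 guide RNA, selected with puromycin and kept as polyclonal cultures. The groups have 3 libraries each: cells with the Hif1a guide HIF1a sg2 at 0.5% oxygen for 48 h (HIF1a-ko hypoxia), cells with the control guide R26 sg1 at 0.5% oxygen for 48 h (R26 hypoxia), and R26 sg1 cells at 20% oxygen for 48 h (R26 normoxia). R26 stands for Rosa26, a locus whose disruption is commonly taken to be harmless. The 9 libraries hold no normoxic cells with the Hif1a guide. An effect of the guide that does not need low oxygen therefore cannot be told apart from one that does. A polyclonal culture can also hold cells in which the guide did not disrupt the gene. Whether the libraries of a group are separate cultures is not stated in the labels. The p-values therefore rest on the spread of 3 samples a group, and that spread may be technical.

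HIF-1 is a transcription factor whose alpha subunit, the product of Hif1a, is degraded when oxygen is plentiful. In low oxygen it raises transcripts of glycolysis, oxygen supply and matrix enzymes. The 6 genes belong to different families. Islr encodes meflin, a surface protein with leucine-rich repeats that marks mesenchymal stromal cells and a population of pancreatic fibroblasts. Tmem26 encodes a membrane protein used in mouse as a surface marker of beige adipocytes, and Mrgprf an orphan receptor of the Mas-related G protein-coupled family. Serpinb6b encodes an intracellular serine protease inhibitor. Smtnl2 encodes a smoothelin-like protein with a calponin homology domain. Lims2 encodes PINCH2, an adapter made of LIM domains that joins integrin-linked kinase to integrin adhesions.

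All 6 are annotated as protein-coding and each lies on a chromosome of its own. Promoter sequence from RefSeq (build GRCm38.p6) was matched for 4 of the 6. Stretches before the RefSeq start that no annotated exon of the gene covers are printed 5′ to 3′ on the strand of the gene, because these genes were low together and their start regions can be compared. They lie at chr10:68723496-68723645 (plus strand) for Tmem26, chr9:58158555-58158804 (minus strand, within introns of other Islr transcripts) for Islr, chr13:32965011-32965208 (plus strand) for Serpinb6b and chr11:72411714-72411963 (minus strand) for Smtnl2. The Tmem26 and Serpinb6b stretches end 100 and 52 bases before the RefSeq start. Capitals mark GGAATG, the core of the motif of TEAD factors.
Tmem26: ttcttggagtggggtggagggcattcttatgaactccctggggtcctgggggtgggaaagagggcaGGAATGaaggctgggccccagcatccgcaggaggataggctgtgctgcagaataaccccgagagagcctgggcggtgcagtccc
Islr: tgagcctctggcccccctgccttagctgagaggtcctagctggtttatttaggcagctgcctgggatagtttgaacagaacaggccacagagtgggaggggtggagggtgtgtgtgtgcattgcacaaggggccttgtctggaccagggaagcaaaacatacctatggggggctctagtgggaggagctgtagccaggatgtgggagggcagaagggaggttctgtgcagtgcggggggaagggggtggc
Serpinb6b: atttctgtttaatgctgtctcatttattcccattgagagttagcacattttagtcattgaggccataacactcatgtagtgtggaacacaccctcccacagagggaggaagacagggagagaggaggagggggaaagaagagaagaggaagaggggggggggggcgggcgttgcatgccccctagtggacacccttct
Smtnl2: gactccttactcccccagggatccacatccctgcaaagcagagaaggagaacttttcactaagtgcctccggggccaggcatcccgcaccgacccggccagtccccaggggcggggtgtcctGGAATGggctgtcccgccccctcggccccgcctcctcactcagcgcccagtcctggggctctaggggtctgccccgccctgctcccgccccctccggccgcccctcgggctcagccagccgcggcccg

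Windows of 300 bases, 250 before and 50 after the RefSeq start, were searched on both strands. The HIF core, written ACGTG or GCGTG, was in none of these 4 windows and in 43.8% of all 32851 promoter windows of the table. The AP-1 motif TGANTCA (7.81% of all windows) and the CArG box of serum response factor (1.63%) were in none of the 4 either. GGAATG was in the Tmem26 window at -184 to -179 and in the Smtnl2 window at -128 to -123 relative to the RefSeq start, and in 14.7% of all windows. These are letters in short windows and say nothing of which factors bind there.

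Total counts per library were 43837809 to 107840223, and 1 library of each group (HIF1a-ko hypoxia 1, R26 hypoxia 3 and R26 normoxia 3) had over 80000000 counts and is called deeper below. Hif1a itself averaged 121.7 ± 4.27 CPM (SD, n = 3; CPM is the count relative to the TMM-scaled library size) in HIF1a-ko hypoxia, 184.5 ± 20.1 CPM in R26 hypoxia and 203.7 ± 18.3 CPM in R26 normoxia. Since Cas9 alters DNA and may leave RNA levels as they are, this checks the guide only weakly. Summed over 10 HIF targets, the level was 715.9 to 745 CPM in HIF1a-ko hypoxia, 1880.5 to 1961.4 CPM in R26 hypoxia and 449.6 to 498.6 CPM in R26 normoxia. By the test given below, 7 of these 10 targets rose and 1, Pdk1, fell in HIF1a-ko hypoxia relative to R26 normoxia (19.5% and 21.9% of all tested genes). All 10 rose in R26 hypoxia (12.8% of all tested genes). Vegfa, the most abundant target, averaged 321.9 CPM in HIF1a-ko hypoxia and 151.3 CPM in R26 normoxia. Slc16a3 averaged 31 and 28.1 CPM in these groups and was not called. The labelled cell type was checked with 9 stellate cell and fibroblast markers. Col1a1, Col1a2 and Vim averaged 3772.4, 3517 and 3434.7 CPM in HIF1a-ko hypoxia and more in both R26 groups. Des, a muscle-type filament of stellate cells, averaged 2.88, 1.97 and 1.82 CPM in HIF1a-ko hypoxia, R26 hypoxia and R26 normoxia. These means mix depth classes, since Des was at 1.32, 0.246 and 0.484 CPM in the deeper libraries of these groups and at 1.85 to 3.73 CPM in the other 6. Lrat, the retinoid-storing enzyme of quiescent stellate cells, was at 0 in all but 1 library. The deeper libraries stood apart in many, but not all, markers of other cells. Levels were far lower there for adipocyte (Fabp4, Adipoq), epithelial (Krt8, Krt18, Epcam), endothelial (Cdh5, Tie1) and pericyte (Kcnj8, Abcc9) genes. Other markers on the same lists, such as Muc1, Egfl7, Cspg4 and Lmod1, showed no such drop. Notch3 was highest in the deeper library of each group, at 13.7, 21.4 and 9.43 CPM in HIF1a-ko hypoxia, R26 hypoxia and R26 normoxia. Fabp4, for example, was at 0.448, 0.208 and 0.439 CPM and Krt8 at 0.0208, 0.00945 and 0.0225 CPM in the deeper HIF1a-ko hypoxia, R26 hypoxia and R26 normoxia libraries, against 31.4 to 71.9 CPM for Fabp4 and 15.3 to 23.7 CPM for Krt8 in the other 6.

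Every one of the 6 genes was lower in every HIF1a-ko hypoxia library than in every R26 normoxia library. That is 54 of 54 single comparisons of a HIF1a-ko library with a normoxia library, which reuse the same libraries for each gene. The genes were picked for low HIF1a-ko hypoxia levels, and their place below normoxia was known beforehand. The count therefore describes the pattern and is no separate support for it. Among all tested genes, which were not picked in this way, 27.8% had all 3 HIF1a-ko hypoxia libraries below all 3 R26 normoxia libraries. In R26 hypoxia the picture was split: Tmem26, Mrgprf, Serpinb6b, Smtnl2 and Lims2 were above all normoxia libraries in every library, and Islr was below all of them in every library. Of all tested genes, 19.3% had all R26 hypoxia libraries above all R26 normoxia libraries and 19.1% had all below. The HIF1a-ko hypoxia mean ranged from 10.1% of the R26 normoxia mean for Islr to 67% for Lims2.

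**Figure D1:**
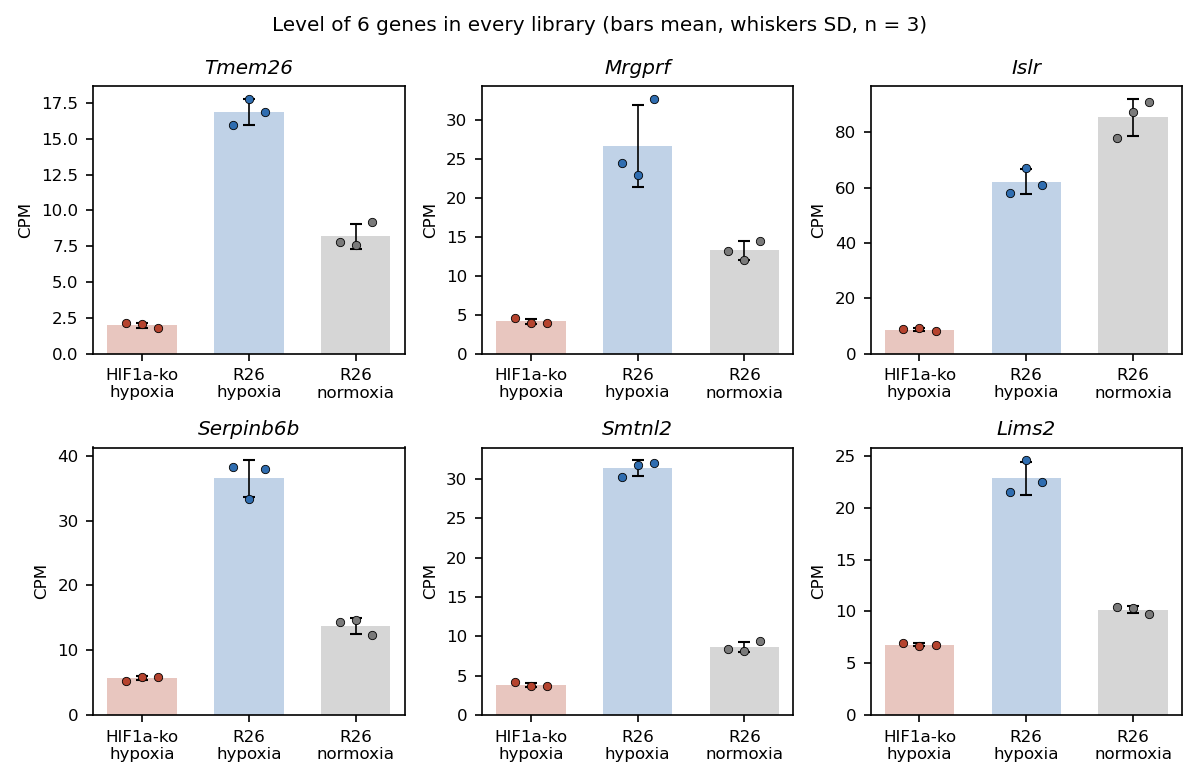
CPM of each gene (y axis, linear from 0) in the 3 libraries of HIF1a-ko hypoxia, R26 hypoxia and R26 normoxia (points), with bars at the mean and whiskers of 1 SD. The HIF1a-ko points lie below both R26 groups in all 6 panels, and Islr is the gene whose R26 hypoxia points lie below its R26 normoxia points.

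The next values compare HIF1a-ko hypoxia, and then R26 hypoxia, with R26 normoxia by edgeR's quasi-likelihood test, two-sided, with Benjamini-Hochberg adjustment over all 18211 genes. A gene is called changed at an adjusted p under 0.05. Both comparisons share libraries with the contrast that chose the genes, the first the HIF1a-ko hypoxia libraries and the second the R26 hypoxia libraries. The tests are therefore not independent of the choice. They also share the R26 normoxia libraries with each other. In the first comparison 21.9% of tested genes were called lower and 19.5% higher, and all 6 of these genes were called lower. In the second 12.8% were called higher and 12.4% lower (25.2% in either direction), with 5 of the 6 genes higher and 1, Islr, lower. Same-numbered libraries of the R26 groups deviated together, but the deeper library is number 3 in both, so number and depth cannot be told apart. With the number as a block and the R26 groups fitted alone, 22.1% of 17387 genes were called higher and 19.6% lower. That is 7259 genes, against 3964 in these groups alone without the block and 4591 in the fit of all 9 libraries. The calls for the 6 genes were the same in each. The median log2 fold change of the 6 genes was -1.48 in the first comparison and 1.11 in the second, against -0.01 over all tested genes in each.

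Islr (ENSMUSG00000037206, chromosome 9, 58156268 to 58204306, minus strand, GRCm38) had the most reads of the 6 and the deepest loss. Its level was 8.75, 9.16 and 7.98 CPM in HIF1a-ko hypoxia 1 to 3 against 58.2, 67.2 and 61.1 CPM in R26 hypoxia 1 to 3 and 77.9, 87.4 and 91 CPM in R26 normoxia 1 to 3. The 3 groups did not overlap, and the lowest normoxia library was 8.5 times the highest HIF1a-ko library. Against R26 normoxia, Islr fell 9.89-fold in HIF1a-ko hypoxia (log2 fold change -3.31 ± 0.09 SE, adjusted p = 7.68e-08), the 9th lowest fold change of all tested genes. In R26 hypoxia it fell to 72.8% of the R26 normoxia mean (log2 fold change -0.46 ± 0.08, adjusted p = 0.00247). Islr overlaps its neighbour Islr2 on the same strand over 181 bp of exons and shares 5.05% of its 50-base words with other genes. Islr2 averaged only 0.461, 0.866 and 0.591 CPM in HIF1a-ko hypoxia, R26 hypoxia and R26 normoxia.

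Tmem26 (ENSMUSG00000060044, chromosome 10, 68723646 to 68782650, plus strand) was the least abundant of the 6 in HIF1a-ko hypoxia, where it had 88 to 203 reads. Its level was 2.11, 2.04 and 1.79 CPM in HIF1a-ko hypoxia 1 to 3, against 16, 17.8 and 16.9 CPM in R26 hypoxia 1 to 3 and 7.8, 7.59 and 9.2 CPM in R26 normoxia 1 to 3. No groups overlapped. Relative to normoxia Tmem26 fell 4.13-fold in HIF1a-ko hypoxia (log2 fold change -2.04 ± 0.11, adjusted p = 8.91e-07) and rose 2.06-fold in R26 hypoxia (1.04 ± 0.10, adjusted p = 0.00013). None of its exons overlaps another gene, and it shares no 50-base word with one.

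Mrgprf (ENSMUSG00000031070, chromosome 7, 145300828 to 145309557, plus strand) had levels of 4.54, 3.9 and 3.91 CPM in HIF1a-ko hypoxia 1 to 3 against 24.4, 22.9 and 32.7 CPM in R26 hypoxia 1 to 3 and 13.2, 12 and 14.5 CPM in R26 normoxia 1 to 3. The deeper R26 hypoxia library was the high one, and the groups did not overlap. Mrgprf fell 3.2-fold below normoxia in HIF1a-ko hypoxia (log2 fold change -1.68 ± 0.14, adjusted p = 1.66e-05) and rose 2.02-fold in R26 hypoxia (1.01 ± 0.14, adjusted p = 0.000786). Without the deeper libraries its R26 hypoxia mean was 188.4% of the normoxia mean, and within the deeper libraries 225.4%.

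Serpinb6b (ENSMUSG00000042842, chromosome 13, 32965209 to 32979067, plus strand) measured 5.28, 5.93 and 5.86 CPM in HIF1a-ko hypoxia 1 to 3 against 38.3, 33.3 and 38 CPM in R26 hypoxia 1 to 3 and 14.3, 14.6 and 12.3 CPM in R26 normoxia 1 to 3. The 3 groups formed separate levels. It fell 2.42-fold below normoxia in HIF1a-ko hypoxia (log2 fold change -1.27 ± 0.09, adjusted p = 5.67e-06) and rose 2.66-fold in R26 hypoxia (1.41 ± 0.09, adjusted p = 1.02e-05). Serpinb6b shares 2.92% of its 50-base words with other genes, mainly paralogs and a predicted gene, so a small part of its count is uncertain.

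Smtnl2 (ENSMUSG00000045667, chromosome 11, 72389164 to 72411713, minus strand) had the strongest rise of the 6 in R26 hypoxia. Its level was 4.17, 3.65 and 3.68 CPM in HIF1a-ko hypoxia 1 to 3, 30.2, 31.8 and 32.1 CPM in R26 hypoxia 1 to 3, and 8.45, 8.13 and 9.37 CPM in R26 normoxia 1 to 3. R26 hypoxia was high in all 3 libraries and HIF1a-ko hypoxia low in all 3. Smtnl2 fell 2.25-fold below normoxia in HIF1a-ko hypoxia (log2 fold change -1.17 ± 0.08, adjusted p = 4.72e-06) and rose 3.62-fold in R26 hypoxia (1.86 ± 0.08, adjusted p = 9.67e-07). It shares 1.42% of its 50-base words with other genes.

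Lims2 (ENSMUSG00000024395, chromosome 18, 31922290 to 31958619, plus strand) showed the smallest shortfall. Its level was 6.95, 6.7 and 6.76 CPM in HIF1a-ko hypoxia 1 to 3 against 21.5, 24.6 and 22.5 CPM in R26 hypoxia 1 to 3 and 10.4, 10.3 and 9.8 CPM in R26 normoxia 1 to 3. The gap between the lowest normoxia and the highest HIF1a-ko library was 2.84 CPM, and the groups did not overlap. Lims2 fell 1.49-fold below normoxia in HIF1a-ko hypoxia (log2 fold change -0.58 ± 0.07, adjusted p = 0.000153) and rose 2.25-fold in R26 hypoxia (1.17 ± 0.07, adjusted p = 6.99e-06). Its fold change below normoxia ranked 2401st from the lowest, so many genes fell further. Lims2 overlaps Gpr17 on the other strand over 188 bp of exons, and the strand setting of the counting is not given in the sources used here, so reads of the pair cannot be told apart there. Gpr17 stood at 0.895 to 1.19 CPM in HIF1a-ko hypoxia, 2.61 to 2.75 CPM in R26 hypoxia and 1.08 to 1.25 CPM in R26 normoxia.

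**Figure D2:**
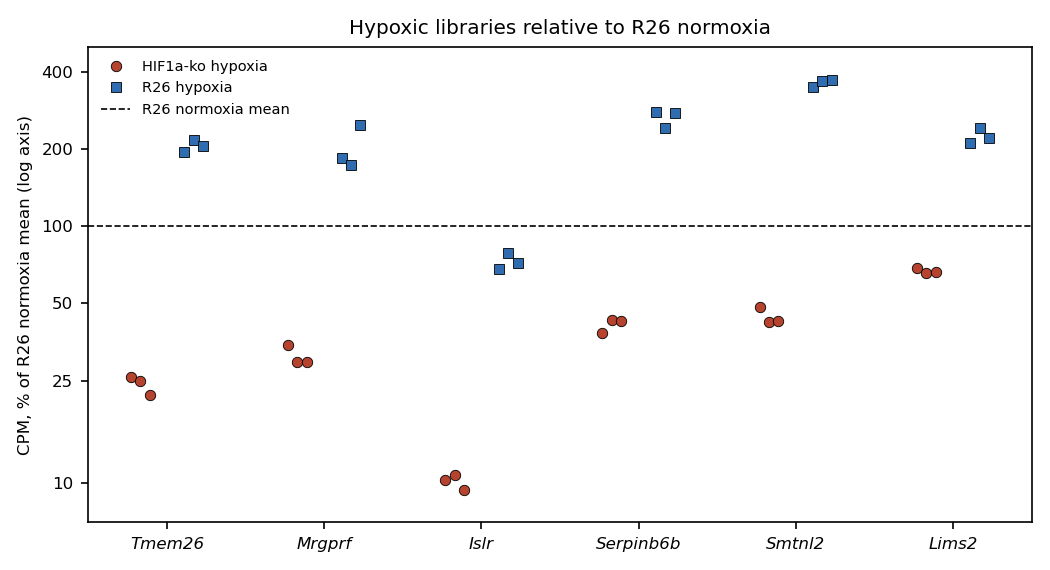
CPM of each HIF1a-ko hypoxia library (circles) and R26 hypoxia library (squares) as a percent of the R26 normoxia mean (dashed line at 100), on a log axis. All circles lie below the line, from 9.34% for Islr to 68.5% for Lims2, and the squares lie above it except for Islr.

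In the contrast that chose the genes, the level in HIF1a-ko hypoxia was 11.7% of the R26 hypoxia mean for Tmem26, 12.2% for Smtnl2, 13.9% for Islr, 15.4% for Mrgprf, 15.6% for Serpinb6b and 29.7% for Lims2. On the log2 scale this was -3.09 for Tmem26 and -1.75 for Lims2, and by this contrast Tmem26 ranked 19th and Lims2 244th from the lowest of 18211 genes. All 3 HIF1a-ko hypoxia libraries were below all 3 R26 hypoxia libraries for each of the 6 genes, and for 28.1% of all tested genes. The same contrast called 23.8% of tested genes lower. The order of the genes differed from the order against normoxia, where the HIF1a-ko level was 10.1% of the mean for Islr, 24.2% for Tmem26, 31.2% for Mrgprf, 41.4% for Serpinb6b, 44.4% for Smtnl2 and 67% for Lims2.

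**Figure D3:**
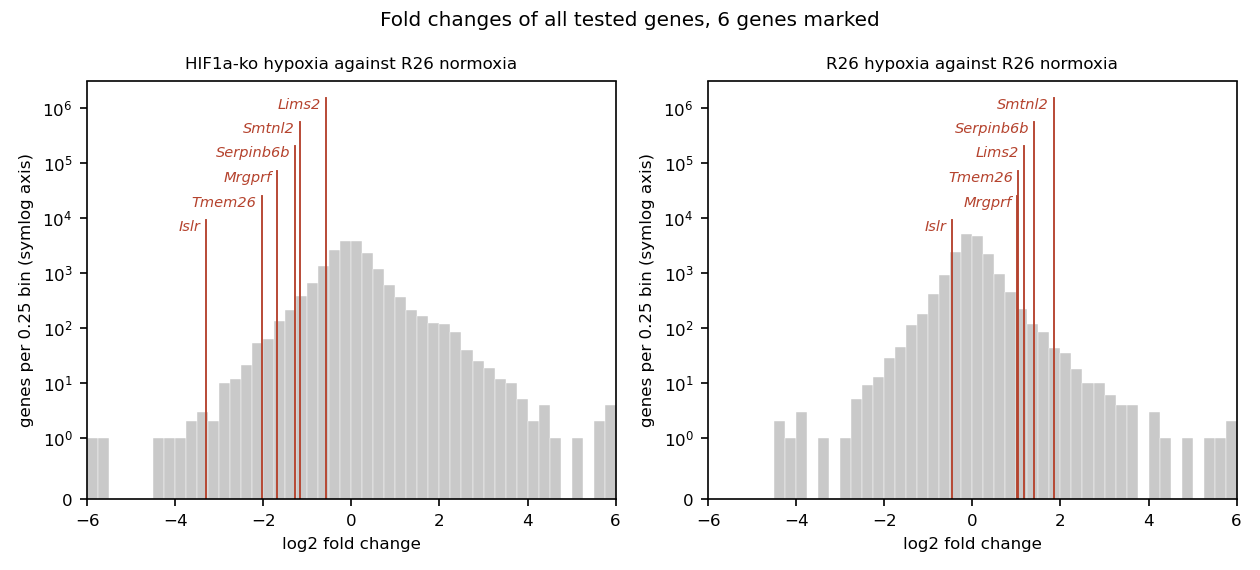
Number of tested genes (y axis, symmetric log) per bin of log2 fold change (x axis) in HIF1a-ko hypoxia against R26 normoxia (left) and R26 hypoxia against R26 normoxia (right), with values past the axis limits counted in the end bins and red lines at the 6 genes. The 6 genes sit between -3.31 and -0.58 on the left, and on the right all but Islr sit between 1.01 and 1.86.

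Per kilobase of exon, Islr was the most abundant of the 6 in each group, at 3.21 ± 0.223 CPM per kb in HIF1a-ko hypoxia, 23.2 ± 1.71 in R26 hypoxia and 31.8 ± 2.52 in R26 normoxia (SD, n = 3). Tmem26 was the least abundant, at 0.375 ± 0.0321, 3.2 ± 0.174 and 1.55 ± 0.165 CPM per kb in the same groups. In R26 normoxia the neighbours Serpinb6b (6.08 ± 0.548 CPM per kb) and Mrgprf (5.97 ± 0.566 CPM per kb) differed by less than their spread. In HIF1a-ko hypoxia the levels per kb of Serpinb6b (2.51 ± 0.158), Lims2 (2.22 ± 0.0433) and Mrgprf (1.86 ± 0.166) lay close together.

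Since the deeper library of each group stood apart in many markers of other cells, the 6 genes were also read within each depth class. The HIF1a-ko level as a percent of R26 normoxia was 9.61% for Islr in the deeper libraries and 10.4% in the shallower ones. For Tmem26 it was 23% and 24.9%, for Mrgprf 31.3% and 31.1%, for Serpinb6b 42.9% and 40.8%, for Smtnl2 44.6% and 44.3%, and for Lims2 71% and 65.2%. Every HIF1a-ko hypoxia library already lay below every R26 normoxia library for these picked genes, so both classes had to give levels below normoxia. That direction is therefore no check on depth. Only the sizes could differ, and the percentages of the classes were close to each other for all 6 genes. The deeper class has no replicate within a group, so its percentages carry no measure of spread.

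Markers of other cells were summed over lists. The 8 leukocyte markers summed to 17.6 to 34.6 CPM in HIF1a-ko hypoxia, 9.4 to 47.9 CPM in R26 hypoxia and 13.5 to 31.8 CPM in R26 normoxia, and the 6 endothelial markers to 11.9 to 21.3, 7.41 to 15.9 and 9.96 to 16.8 CPM. The 6 adipocyte markers summed to 0.562 to 87.4 CPM in HIF1a-ko hypoxia, 0.274 to 140.4 CPM in R26 hypoxia and 0.597 to 129.2 CPM in R26 normoxia. The 9 epithelial markers, of which Prss1 and Ins2 were at 0, summed to 14.1 to 59.1, 46.5 to 106.6 and 15.7 to 69.9 CPM in these groups. These 4 sums overlapped between HIF1a-ko hypoxia and R26 normoxia. Of the single markers on these 4 lists, Kdr and Egfl7 rose and Vwf and Cd79a fell in HIF1a-ko hypoxia relative to R26 normoxia. The 7 pericyte and smooth muscle markers summed to 26.9 to 42 CPM in HIF1a-ko hypoxia, below both R26 groups, which overlapped at 51 to 60.8 CPM in R26 hypoxia and 46.1 to 53.4 CPM in R26 normoxia. Within that list the direction was mixed (median log2 fold change 0.16 against R26 normoxia): Lmod1 fell by 1.23 and Notch3 rose by 0.49 in HIF1a-ko hypoxia, and Rgs5, at -1.52, was not called (adjusted p = 0.0668). The 9 stellate cell and fibroblast markers were also lower, at 12006.2 to 12453.3 CPM in HIF1a-ko hypoxia, 18573.2 to 20176.8 CPM in R26 hypoxia and 15627.4 to 17439 CPM in R26 normoxia, with Pdgfra, Col1a1, Col1a2, Dcn and Vim called lower against R26 normoxia. The part of either list in the fall of the 6 genes was not tested, and in bulk RNA fewer cells of a type and less RNA per cell cannot be told apart.

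Genes related to each of the 6 were counted over lists and compared with R26 normoxia by the same test. Of 17 mesenchymal progenitor and fibroblast genes set beside Islr, 2 rose and 4 fell in HIF1a-ko hypoxia, with a median log2 fold change of -0.06 (over all genes -0.01, with 41.4% called in either direction). Pdgfra, the receptor for platelet-derived growth factor A, was at 212 ± 10.3 CPM in HIF1a-ko hypoxia and 486.3 ± 5.65 CPM in R26 normoxia (log2 fold change -1.20). The collagen-binding proteoglycan Dcn fell by 1.10 and the mucin-type glycoprotein Pdpn by 0.64 on the log2 scale. Gli1, a factor of hedgehog signalling, rose to 1.12 ± 0.158 CPM in HIF1a-ko hypoxia, against 0.288 ± 0.0535 CPM in R26 normoxia. None of the 17 genes had a log2 fold change as low as that of Islr. In R26 hypoxia 6 of the 17 rose and 1, Dcn, fell (12.8% and 12.4% of all tested genes).

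Of 15 smoothelin and smooth muscle contractile genes set beside Smtnl2, 14 were tested and 9 fell in HIF1a-ko hypoxia relative to R26 normoxia, with none higher (median log2 fold change -0.43; 21.9% of all tested genes fell and 19.5% rose). Smtn, the smoothelin gene itself, stood at 53.6 ± 2.07 CPM in HIF1a-ko hypoxia, 87.8 ± 6.43 CPM in R26 hypoxia and 87.7 ± 2.01 CPM in R26 normoxia. It fell by 0.71 on the log2 scale in HIF1a-ko hypoxia (adjusted p = 1.17e-05), whereas its level in R26 hypoxia gave a log2 fold change of 0.00 (adjusted p = 0.989). Lmod1, an actin nucleator of smooth muscle, fell by 1.23, the regulatory light chain Myl9 by 0.97 and the calponin Cnn1 by 0.69. In R26 hypoxia 4 of the 14 fell and none rose (12.4% and 12.8% of all tested genes), so Smtnl2 was higher there while Acta2, Myl9, Tpm1 and Cald1 were lower. Smtnl1, the other smoothelin-like gene, did not pass the filter and reached at most 0.0218 CPM in any library.

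The Lims2 list holds 15 genes of the complex of integrin-linked kinase, PINCH and parvin and of integrin adhesions. Relative to R26 normoxia, 8 fell and 2 rose in HIF1a-ko hypoxia (median log2 fold change -0.20; 21.9% of all tested genes fell and 19.5% rose). Lims1, the paralog PINCH1, was far more abundant than Lims2, at 57.6, 69.4 and 79 CPM per kb in HIF1a-ko hypoxia, R26 hypoxia and R26 normoxia, against 2.22, 7.48 and 3.32 CPM per kb for Lims2. Lims1 fell by 0.46 on the log2 scale in HIF1a-ko hypoxia (adjusted p = 0.00119), and in R26 hypoxia it was at -0.19 (adjusted p = 0.113). The partners Ilk and Parva fell by 0.41 and 0.82, and the adhesion proteins Zyx and Vcl by 0.96 and 0.93. Itgb1, the integrin beta-1 subunit, rose by 0.18 and the talin gene Tln2 by 0.34. In R26 hypoxia 2 of the 15 rose and 3 fell, near the share of all tested genes (12.8% and 12.4%).

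Serpinb6b was set beside the other clade B serpins, a family of mostly intracellular protease inhibitors. Of 18 listed, 9 were tested, and relative to R26 normoxia 4 rose and 1, Serpinb6a, fell in HIF1a-ko hypoxia (median log2 fold change 0.12; 19.5% of all tested genes rose and 21.9% fell). Serpinb6a, the abundant paralog, stood at 297.4 ± 13.2 CPM in HIF1a-ko hypoxia, 420 ± 14.4 CPM in R26 hypoxia and 400.5 ± 14.2 CPM in R26 normoxia, a log2 fold change of -0.43 below normoxia (adjusted p = 0.00013). Serpinb8 rose to 49.8 ± 0.469 CPM in HIF1a-ko hypoxia, against 16.1 ± 0.931 CPM in R26 normoxia. Serpinb6c and Serpinb2 rose as well but reached at most 1.04 CPM (Serpinb6c) in any library.

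Few receptors of the Mrgprf family were detected. Of 18 listed, 2 passed the filter and 5 had no count in any library. Mrgpre rose in HIF1a-ko hypoxia, to 8.5 ± 0.379 CPM against 2.88 ± 0.364 CPM in R26 normoxia (log2 fold change 1.56, adjusted p = 5.03e-06), and in R26 hypoxia, to 6.07 ± 0.203 CPM (1.07, adjusted p = 0.00016). Mrgpre was thus opposite to Mrgprf in the HIF1a-ko cells. Mas1 stood at 2.16 ± 0.296 CPM in HIF1a-ko hypoxia and 2.95 ± 0.774 CPM in R26 normoxia (adjusted p = 0.2).

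Of 10 other markers and regulators of beige adipocytes, set beside Tmem26, 6 were tested, 3 rose and none fell in HIF1a-ko hypoxia relative to R26 normoxia (19.5% and 21.9% of all tested genes). Ppargc1a, a coactivator of mitochondrial genes, rose to 5.84 ± 0.0368 CPM, against 3.41 ± 0.585 CPM in R26 normoxia. Cited1 and the deiodinase Dio2 rose too, with group means of at most 0.748 CPM (Dio2). Ucp1, the uncoupling protein, averaged 0.0252 CPM in HIF1a-ko hypoxia, 0.00978 CPM in R26 hypoxia and 0.00751 CPM in R26 normoxia.

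**Figure D4:**
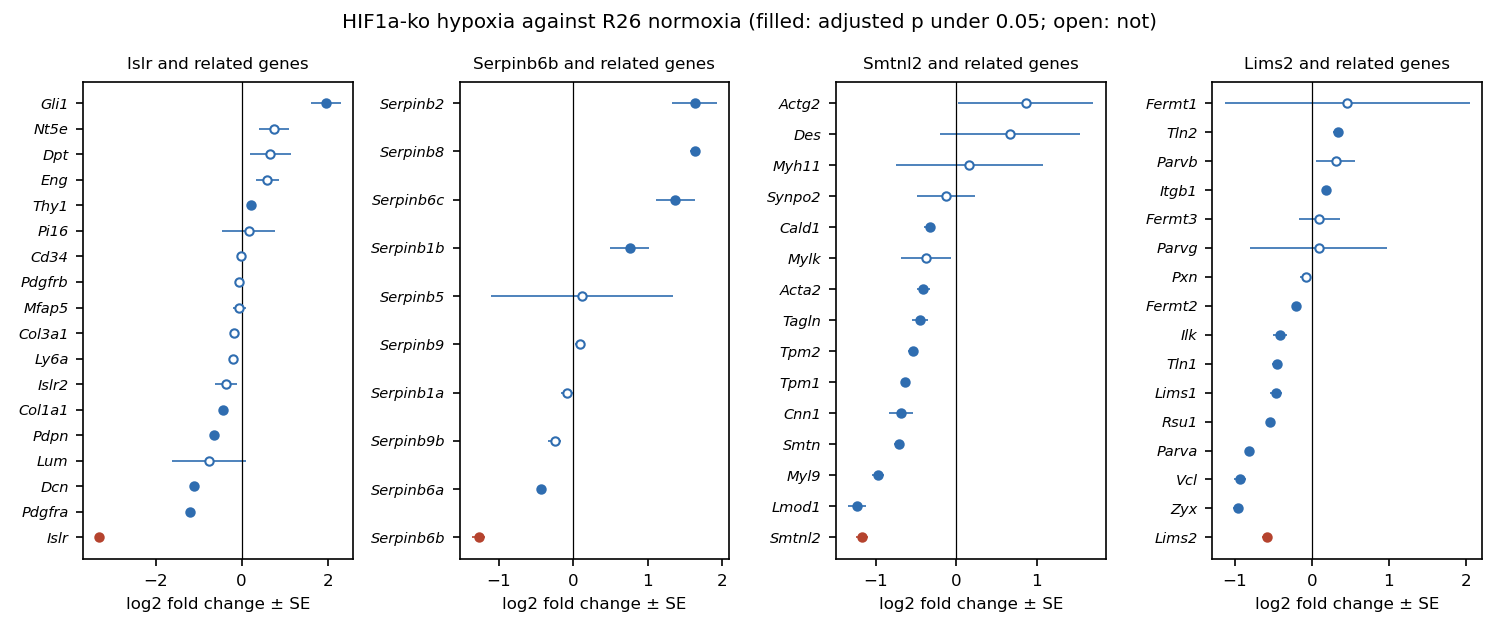
Log2 fold change in HIF1a-ko hypoxia against R26 normoxia (x axis, whiskers SE) of Islr, Serpinb6b, Smtnl2 and Lims2 (red) and of the tested genes of the list set beside each (blue), filled where the adjusted p was under 0.05. The contractile and adhesion genes lie mostly left of 0, while the serpins lie on both sides, from -0.43 for Serpinb6a to 1.63.

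For each of the 6 genes the 3 tested genes with the nearest pattern over the 9 libraries were taken, by the smallest root mean square (RMS) difference of log2(CPM + 0.5) after centring each gene. Pearson's r over the 9 libraries was 0.980 to 0.996 for these pairs, a description that rests mostly on the differences between 3 groups. Of the 18 places 4 went to another of the 6 genes: Tmem26 and Mrgprf were near each other (RMS difference 0.187), and Serpinb6b and Smtnl2 were near each other (0.233). Nearest to Tmem26 by this measure was Dkk2, a secreted modulator of Wnt signalling (RMS difference 0.155), at 0.129 ± 0.0684 CPM in HIF1a-ko hypoxia, 4.04 ± 0.297 CPM in R26 hypoxia and 1.96 ± 0.294 CPM in R26 normoxia. Its HIF1a-ko level lies below the added 0.5 CPM, which compresses its fall. In HIF1a-ko hypoxia against R26 normoxia its log2 fold change was -4.00, and that of Tmem26 -2.04. The orphan receptor gene Gpr153 followed at 0.224. Npy4r, a receptor for pancreatic polypeptide (0.203), and Galnt15 (0.21) were nearest to Mrgprf besides Tmem26.

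Cthrc1, a secreted protein of matrix-making fibroblasts, was the nearest gene to both Serpinb6b (RMS difference 0.125) and Smtnl2 (0.225). It stood at 1.09 ± 0.0895 CPM in HIF1a-ko hypoxia, 9.6 ± 0.85 CPM in R26 hypoxia and 3.44 ± 0.349 CPM in R26 normoxia. Ppp1r3c, which targets protein phosphatase 1 to glycogen, was near Serpinb6b (0.21), at 21.5 ± 1.64, 96.5 ± 1.38 and 44.5 ± 1.88 CPM in the same groups. Ndrg2 was near Smtnl2 (0.226). Islr had its own neighbours: the aldehyde oxidase gene Aox3 (0.207), the tetraspanin gene Tspan18 (0.3) and Gdpd2 (0.313), which had low levels in HIF1a-ko hypoxia and R26 hypoxia levels near those in R26 normoxia. Aox3 was at 11.2 ± 1.92 CPM in HIF1a-ko hypoxia, 71 ± 3.77 CPM in R26 hypoxia and 79.4 ± 2.57 CPM in R26 normoxia. Lims2 was nearest to Gabra3 (0.103), to Mxi1, which encodes a partner of MAX (0.106), and to Podnl1, a small leucine-rich proteoglycan gene (0.131). Mxi1 was at 51.6 ± 2.69 CPM in HIF1a-ko hypoxia, 151.6 ± 13 CPM in R26 hypoxia and 69.8 ± 3.08 CPM in R26 normoxia.

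**Figure D5:**
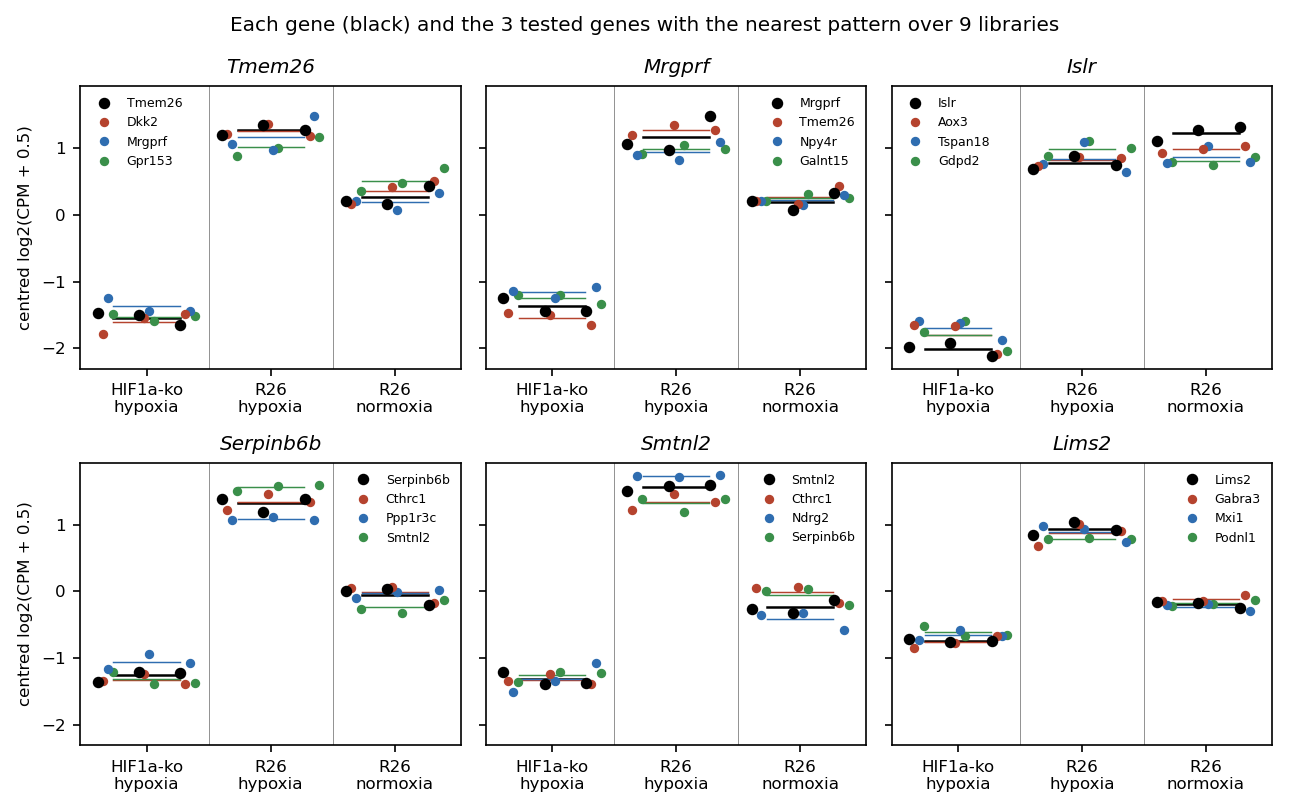
Centred log2(CPM + 0.5) (y axis) of each of the 6 genes (black) and its 3 nearest genes (colours) in the 9 libraries, by group, with lines at the group means. In 5 panels R26 hypoxia is highest and R26 normoxia between the other groups, while in the Islr panel both R26 groups lie near each other and above HIF1a-ko hypoxia.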

How the data were processed

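Read counts per Ensembl gene were deposited without normalization. GRCm38, bcl2fastq 2.17, STAR, featureCounts, Trimmomatic and DESeq2 are named, without settings, per the submitters' processing notes. Not given in the sources used here are the annotation release, the strand setting and the treatment of multiply mapping reads. Column names gave the sample, and 1 name (R26 hypoxia 3) holds the parts of its title in another order. Of 49315 identifiers, 48970 were paired with a GENCODE M21 symbol.

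Counts were tested in edgeR 4.0.16 (R 4.3.3) with filterByExpr, TMM scaling and quasi-likelihood tests, fitting the 9 libraries together by group. A standard error is the absolute log2 fold change before edgeR's shrinkage, divided by the root of the test's F statistic. The printed fold changes are those after shrinkage. The procedure was tested on simulated data. Between libraries of a group, a chi-square per degree of freedom was 6.73 to 69.9, so none was a duplicate. Deviations of same-numbered libraries correlated at 0.501, 0.553 and 0.862 between the R26 groups, and at -0.699 to 0.608 with HIF1a-ko hypoxia. The deeper library is number 3 in both R26 groups and number 1 in HIF1a-ko hypoxia. Pairing by number and depth class therefore cannot be told apart from these correlations. Shared sequence is the percent of distinct 50-base words of a gene's transcripts that another gene's transcripts hold.

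The genes, lists and tests were chosen with earlier results of these data known. The genes named beside the 6 were the called members of each list with the largest fold changes against R26 normoxia (up to 4), the closest paralogs and the 3 nearest patterns per gene (average log2 CPM of at least 1, predicted genes left out). Markers, Gpr17, Itgb1, Tln2, Ilk, Mas1, Ucp1, and Acta2, Tpm1 and Cald1 in R26 hypoxia, were named to complete counts or lists. Alternatives were DESeq2 1.42.0, other size factors, no filter, the compared groups alone, a replicate block, depth class and leaving out each library.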

Additional observations from a re-analysis of the deposited data

How the results depend on the processing

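The 6 genes kept their direction and their side of the threshold in both comparisons with R26 normoxia under every alternative run: DESeq2, RLE size factors, no low-count filter, only the compared groups, the replicate block, depth class as a term, the shallower libraries alone, and leaving out each of the 9 libraries. The largest adjusted p over these was 0.0128 for R26 hypoxia against R26 normoxia (Islr, without R26 normoxia replicate 2) and 0.009 for HIF1a-ko hypoxia against R26 normoxia (Lims2, with the replicate block). For HIF1a-ko hypoxia against R26 normoxia, the log2 fold change of Islr ran from -3.37 to -3.23 and that of Lims2 from -0.60 to -0.54. For R26 hypoxia against R26 normoxia, Islr ran from -0.52 to -0.38 and Mrgprf, the most variable, from 0.84 to 1.11. The replicate block was fitted on the compared groups alone. The number of genes called in R26 hypoxia against R26 normoxia was 4591, and 3287 to 4373 with 1 library left out. It was 3964 with only the compared groups, 7259 with the replicate block added to these and 6959 with depth class as a term. For HIF1a-ko hypoxia against R26 normoxia it was 7548, and 6309 to 7995 with 1 library left out. It was 7671 with only the compared groups and 6240 with the replicate block added to these. In the shallower libraries alone it was 8377, and with depth class as a term 9617. The replicate block changed no call of the 6 genes. Depth limits the lowest value most: Tmem26 had 88 reads in HIF1a-ko hypoxia 3.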
